A study of Mus musculus with 2 samples.

Results

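Vegfa, Kdr, Flt1, Flt4, Nrp1, Nrp2, Apln and Aplnr are the genes of 2 signalling systems that link the epithelium, fibroblasts and capillaries of the alveolus. These 8 genes were picked by symbol out of the 32883 features of the count matrices, and each symbol matched 1 feature. They were read in single lung cells of 2 groups of wild-type mice, 1 at 6 hours after hepatic ischemia-reperfusion (HIR; the liver's blood supply is interrupted and then restored), and 1 after sham surgery. Each group had 1 droplet library (10x Genomics) made from lung digested to single cells, and the age and strain of the animals, the length of the ischemia and the number of lungs per library are not given in the sources used here. The features all carry rat Ensembl identifiers although the labels name the mouse, so the species of the animals is not settled here. The symbols are those of the rat annotation (Vegfa is ENSRNOG00000019598 and Apln ENSRNOG00000003984), and the files give no coordinates.

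Vegfa encodes VEGF-A, a secreted growth factor that in the lung is made above all by the flat alveolar type 1 cells and keeps the underlying capillaries alive and permeable. Its signal passes through the receptor VEGFR2 (Kdr), while VEGFR1 (Flt1) binds VEGF-A tightly and signals weakly, VEGFR3 (Flt4) serves VEGF-C in lymphatic vessels, and the neuropilins (Nrp1, Nrp2) are co-receptors that also bind class 3 semaphorins. Apelin (Apln) is a secreted peptide whose G protein-coupled receptor is Aplnr. In the mouse lung, Apln and high Kdr mark aerocytes, the large capillary cells of gas exchange, and Aplnr marks the general capillary cells, which divide and repair the vessel.

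There were 50801778 UMIs (unique molecular identifiers, tags by which captured transcripts are counted) over 9499 barcodes in the HIR library and 59566745 over 10719 barcodes in the sham library, 24 of which were in both libraries. After filtering, 7925 HIR cells and 8574 sham cells remained, of which 7545 and 8272 were put in a class by the markers they showed. Of 28 classes, the 19 with at least 50 cells in both libraries were compared. With 1 library per group there is no replicate spread and no test. Each interval below is a 95% interval for counting error alone, and "higher" and "lower" say how these 2 libraries differ, not the 2 conditions. Levels are CPM (UMIs of a gene per 1000000 UMIs of the class). Classes are called X-like from their markers: the general capillary-like class (1282 HIR cells and 1444 sham cells) had Plvap, Glp1r and Gpihbp1 among its leading genes, the aerocyte-like class (243 and 234 cells) Ednrb, Prx and Ca4, and the alveolar type 1-like class (169 and 175 cells) Aqp5, Ager and Pdpn. No member was used in the gates. Of the aerocyte-like cells, 161 of 243 in HIR and 148 of 234 in sham had exactly the 3 markers that the gate requires. The alveolar fibroblast-like class (76 and 257 cells) held Itga8 and Tcf21 among its leading genes, but Rprml, a marker listed for aerocytes, came first there and was at 3.85 CPM in HIR and 2.97 CPM in sham aerocyte-like cells.

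The members divided the alveolus in the same way in both libraries. The highest Vegfa level of the 19 classes was in alveolar type 1-like cells, then alveolar fibroblast-like and general capillary-like cells. Kdr, Flt1, Nrp1 and Apln were highest in aerocyte-like cells, Aplnr in general capillary-like cells and Nrp2 in alveolar type 1-like cells.

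**Figure D1:**
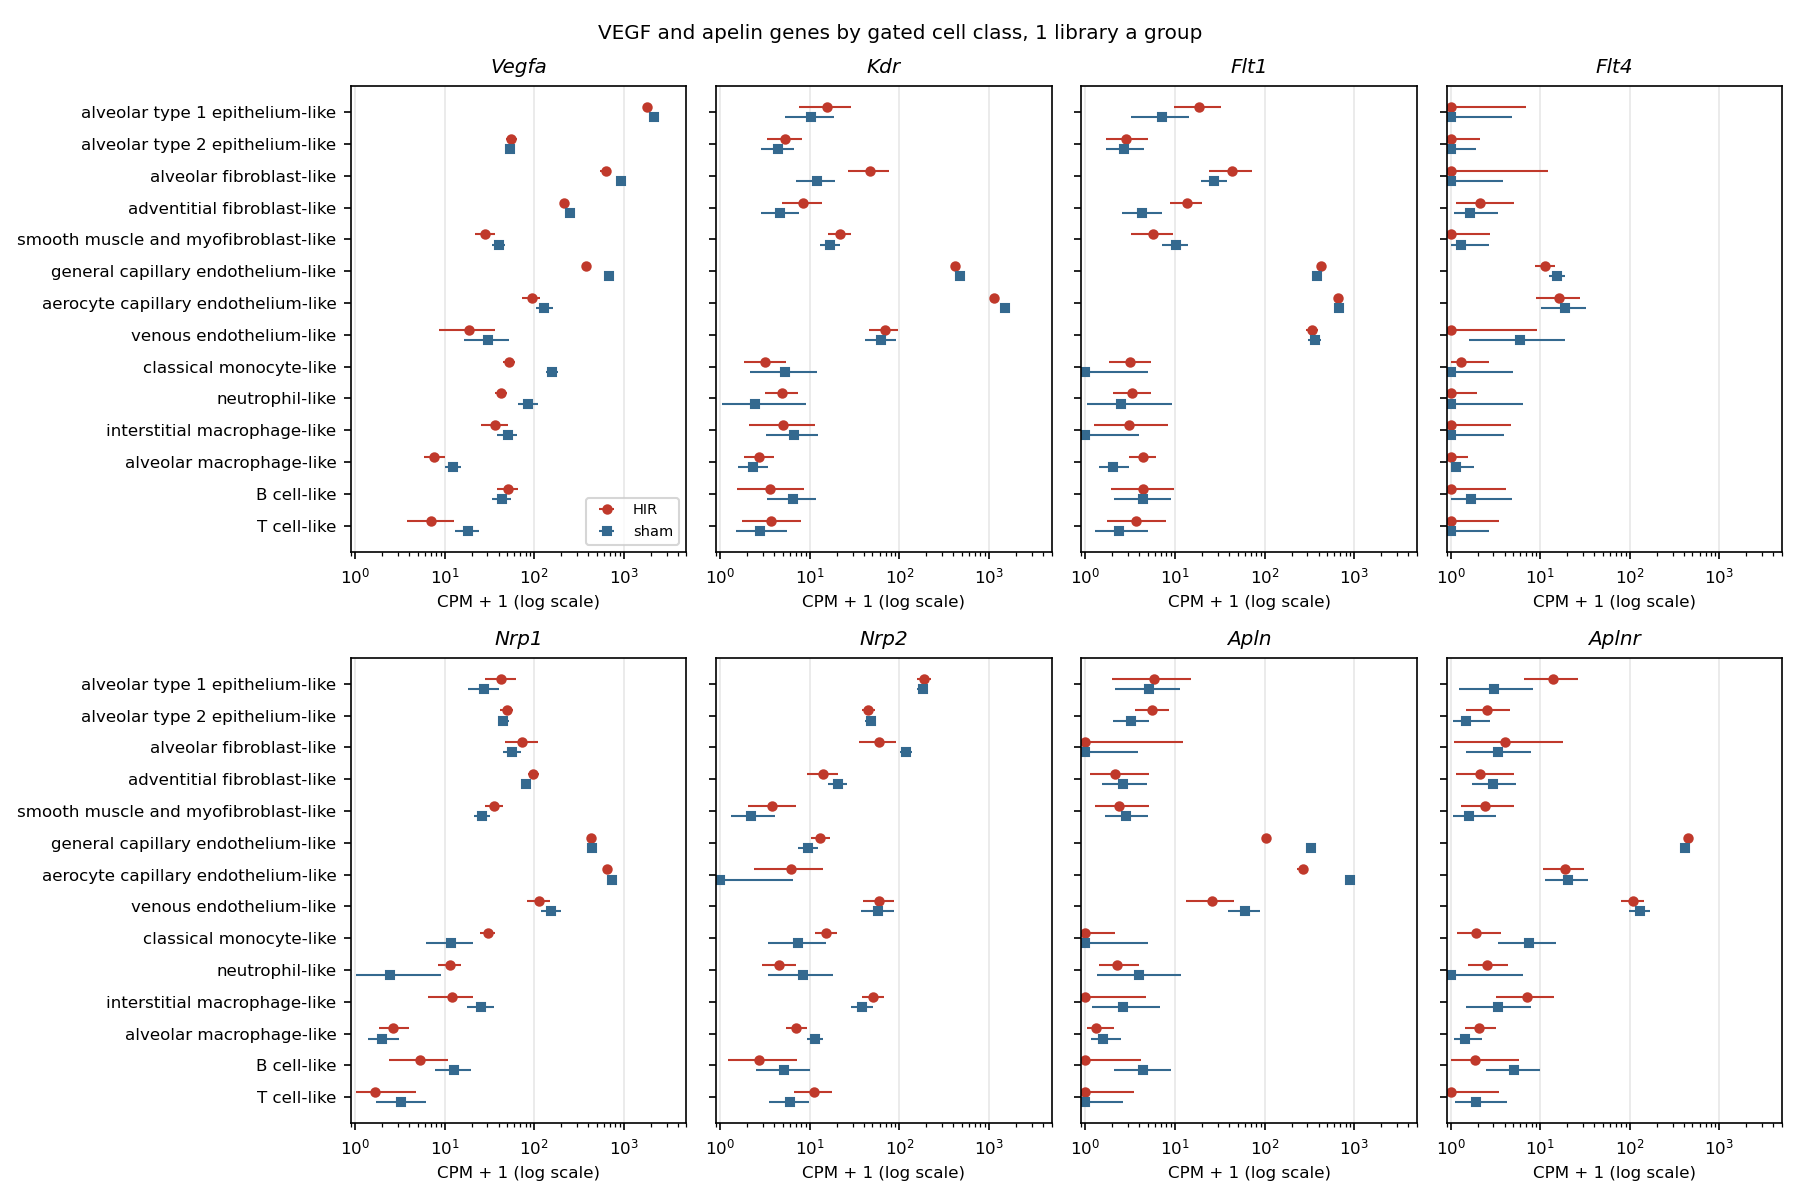
Level of each member (CPM + 1, log scale) in 14 of the compared classes, with HIR as circles above sham as squares and exact Poisson intervals as bars. Vegfa is highest in alveolar type 1-like cells, Kdr, Flt1 and Nrp1 in aerocyte-like cells and Aplnr in general capillary-like cells, and the HIR points of Apln lie below the sham points in both capillary classes, at 267 and 897 CPM in aerocyte-like cells.

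Apln was about 3-fold lower in the HIR library in both capillary classes, the lowest ratio of the members that reached 20 CPM there in either library. Aerocyte-like cells held 267 CPM (208 UMIs, 232 to 306) in the HIR library and 897 CPM (604 UMIs, 827 to 972) in the sham library, a ratio of 0.297 (0.253 to 0.349). General capillary-like cells held 101 CPM (92.8 to 111) in the HIR library and 327 CPM (313 to 341) in the sham library, a ratio of 0.311 (0.281 to 0.343). The intervals did not overlap in either class, and the 2 ratios differed by less than counting error (the aerocyte-like over the general capillary-like ratio was 0.957, 0.795 to 1.15). The order of the classes was also kept: Apln was 2.63-fold (2.23 to 3.10) higher in aerocyte-like than in general capillary-like cells of the HIR library and 2.75-fold (2.505 to 3.01) in the sham library. Of all genes with at least 20 CPM in either library, 1.2% were lower and 5.06% higher by 2-fold or more in HIR aerocyte-like cells after 10 CPM was added to both values, and 0.55% were lower and 1.15% higher in general capillary-like cells. That is the 2-fold mark used throughout. Apln was the 1 member past it among the 5 that reached 20 CPM in aerocyte-like cells, all 5 of them lower in HIR, and among the 6 that did so in general capillary-like cells, 4 of them lower. Of all genes, 51.7% and 51.4% were lower in these classes. In aerocyte-like cells the ratios of Flt1, Nrp1 and Vegfa lay above 1 under other settings, at up to 1.34, 1.33 and 1.31. The sum of 6 red cell markers was lower in HIR, as Apln was, in these 2 classes. It was 1611 CPM in HIR and 4118 CPM in sham aerocyte-like cells, with 0 and 1 of them at 0. It was 1659 CPM in HIR and 2977 CPM in sham general capillary-like cells, with none at 0. The 7 aerocyte markers also summed to less in HIR, though single markers went both ways. They summed to 4219 CPM in HIR and 5769 CPM in sham aerocyte-like cells, with 3 higher and 4 lower in HIR. The largest gap there was that of Ca4, at 1998 CPM in HIR and 3617 CPM in sham. Ednrb was at 1067 CPM in HIR and 1095 CPM in sham, and Prx at 937 CPM in HIR and 835 CPM in sham. In general capillary-like cells the 7 aerocyte markers summed to 1076 CPM in HIR and 1401 CPM in sham, with 4 higher and 3 lower. The part of the red cell and aerocyte markers in the result was not tested.

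Fewer HIR cells showed the transcript as well. With each cell thinned to 1000 UMIs, Apln was found in 27.7% (22.0 to 33.8) of 235 HIR aerocyte-like cells and 51.3% (44.6 to 57.9) of 230 sham aerocyte-like cells, leaving out 8 and 4 shallower cells. Without thinning the shares were 49.0% and 77.4%, at median depths of 2604 and 2609 UMIs. In general capillary-like cells the thinned shares were 5.54% (4.34 to 6.95) in the HIR library and 17.5% (15.5 to 19.5) in the sham library, with 18 shallower cells left out of each library. The unthinned shares were 19.3% and 35.8%, at median depths of 2788 and 3060.5 UMIs. B cell-like cells, which should lack Apln, showed it in 0 of 358 thinned HIR cells, which allows a share of up to 0.838%, and in 0.204% of 491 thinned sham cells, at median depths of 2619.5 and 2369 UMIs. Both capillary classes were above that background in both libraries. These shares come from 1 random draw. Averaged over all possible draws they were 25.6% in HIR and 51.4% in sham aerocyte-like cells, and 6.65% in HIR and 16.8% in sham general capillary-like cells.

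Apln was lower in 2 further endothelial classes. Endothelial cells that no subtype list could place, led by Vwf and Tm4sf1, held 56.5 CPM (42.9 to 73.1) in the HIR library and 280 CPM (251 to 311) in the sham library. Venous-like cells held 24.6 CPM (12.3 to 44.1, 11 UMIs) in the HIR library and 59.3 CPM (38.0 to 88.2, 24 UMIs) in the sham library. By the 2-fold mark, 3.87% of genes were lower and 3.16% higher in venous-like cells, and 1.31% were lower and 1.45% higher in the unplaced endothelium. Apln was the 1 member of the 7 measured that passed it in each of these classes. In venous-like cells it lay just at the mark. With the stricter cell filter the venous-like levels were 29.9 CPM in HIR and 53.2 CPM in sham, a ratio of 0.562. The 7 aerocyte markers summed to less in HIR in both classes, though 3 were higher and 3 lower in each. They summed to 219 CPM in HIR and 437 CPM in sham venous-like cells, with 1 and 3 of them at 0. They summed to 835 CPM in HIR and 1329 CPM in sham cells of the unplaced endothelium, with 1 and 2 at 0. In the unplaced endothelium the 6 general capillary markers summed to 3983 CPM in HIR and 5705 CPM in sham, with none at 0. The 5 airway markers summed there to 22344 CPM in HIR and 333 CPM in sham, with 2 at 0 in both. The 6 red cell markers summed to 430 CPM in HIR and 766 CPM in sham venous-like cells, with 3 and 1 at 0. In the unplaced endothelium they went the other way, at 1337 CPM in HIR and 954 CPM in sham, with none at 0. The part of these markers in the result was not tested.

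The receptor gene Aplnr was at similar levels in the 2 libraries. Aplnr in general capillary-like cells stood at 449 CPM (430 to 468) in the HIR library and 417 CPM (401 to 433) in the sham library, a ratio of 1.08 (1.02 to 1.14). Its share of positive cells at 1000 UMIs, averaged over all draws, was 37.9% in HIR and 37.0% in sham. In the 1 draw made the shares were 35.3% (32.6 to 38.0) in HIR and 39.0% (36.4 to 41.6) in sham, so no direction is read from the share. In aerocyte-like cells Aplnr was at 18.0 CPM (14 UMIs) in the HIR library and 19.3 CPM (13 UMIs) in the sham library, 24.97-fold (14.9 to 45.8) and 21.6-fold (12.6 to 40.6) below the general capillary-like level. In a separate draw of 2000 UMIs from each general capillary-like cell, 6.24% of 1009 HIR cells and 13.4% of 1212 sham cells showed both Apln and Aplnr. Of the 126 HIR and 347 sham cells with Apln in that draw, 50% and 46.7% showed Aplnr. Among the cells without Apln, 57.2% showed it in both libraries.

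The 3 classes with the highest Vegfa levels all held less of it in HIR than in sham, by different amounts. General capillary-like cells, which carried 32.1% of all Vegfa UMIs in the HIR library and 39.1% in the sham library, held 375 CPM (359 to 393) in the HIR library and 689 CPM (669 to 710) in the sham library, a ratio of 0.545 (0.516 to 0.575). Their thinned share of Vegfa-positive cells was 32.4% (29.8 to 35.02) in HIR and 48.2% (45.6 to 50.9) in sham, and the unthinned share 56.9% and 78.4%, beside 6.42% in thinned HIR and 4.68% in thinned sham B cell-like cells. The 5 airway secretory markers summed to 389 CPM in HIR and 4790 CPM in sham general capillary-like cells, with 2 of the 5 at 0 in both. Some markers of other cells were higher in HIR there. The 7 alveolar type 1 markers summed to 1627 CPM in HIR and 980 CPM in sham, and the 8 alveolar type 2 markers to 1003 and 679 CPM, with none at 0. The 6 neutrophil markers summed to 857 CPM in HIR and 337 CPM in sham, with 0 and 1 at 0. The part of all these markers was not tested. Alveolar fibroblast-like cells held 626 CPM (544 to 718) in the HIR library and 930 CPM (878 to 984) in the sham library, a ratio of 0.674 (0.578 to 0.781), with Vegfa in 41.3% (30.1 to 53.3) of 75 thinned HIR cells and 56.2% (49.9 to 62.4) of 256 thinned sham cells. In adventitial fibroblast-like cells the levels were 215 CPM (194 to 238) in the HIR library and 248 CPM (231 to 267) in the sham library.

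Alveolar type 1-like cells held 1831 CPM of Vegfa (1727 to 1941) in the HIR library and 2157 CPM (2066 to 2252) in the sham library, a ratio of 0.849 (0.789 to 0.913). The share of thinned cells with a Vegfa UMI was 77.7% (69.9 to 84.3) in HIR and 78.3% (70.4 to 84.8) in sham, over 139 HIR and 138 sham cells, with 30 and 37 shallower cells left out; the class's median depth was 3371 UMIs in HIR and 4816 in sham. Averaged over all draws the shares were 74.8% in HIR and 81.3% in sham. In the draw, positive cells had on average 2.44 Vegfa UMIs in the HIR library and 3.26 in the sham library. This class was not equally pure in the 2 libraries: the summed level of 5 airway secretory markers was 1645 CPM in HIR and 80679 CPM in sham, with 2 of the 5 at 0 in both, and that of 8 alveolar type 2 markers was 16140 CPM in HIR and 35693 CPM in sham, with none at 0. Other markers were higher in the HIR cells: 6 neutrophil markers summed to 2292 CPM in HIR and 118 CPM in sham, with 1 and 3 at 0. The 6 red cell markers summed to 2366 CPM in HIR and 961 CPM in sham, with none at 0. The 7 endothelial markers summed to 688 CPM in HIR and 413 CPM in sham, with none at 0. Without cells that showed markers of a second lineage, Vegfa was at 2081 CPM in 130 HIR cells and 3187 CPM in 133 sham cells, a ratio of 0.653, and with Leiden clusters in place of the gate the ratio was 0.546. The direction was the same in all 10 alternatives run for this value, but its size was not settled. The log2 ratio of Vegfa was -0.24, and the median over all 5666 genes measured in the class 0.21; 2.15% of them were lower and 3.81% higher by the 2-fold mark. Alveolar type 2-like cells, which make surfactant, held 54.5 CPM in the HIR library and 52.8 CPM in the sham library, about the level of B cell-like cells (49.7 CPM in HIR and 42.4 CPM in sham), and 33.6-fold (28.6 to 39.5) and 40.9-fold (35.5 to 47.2) below alveolar type 1-like cells.

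The Vegfa ratio of general capillary-like cells was lower than that of alveolar type 1-like cells (0.642 of it, 0.586 to 0.702), but without cells of a second lineage the ratios were 0.575 and 0.653, and with Leiden clusters the order turned, at 0.607 and 0.546. Aerocyte-like cells held little Vegfa, 92.4 CPM (72.3 to 116) in HIR and 129 CPM (104 to 159) in sham. Classical monocyte-like cells held 51.8 CPM (44.3 to 60.1) in the HIR library and 157 CPM (133 to 185) in the sham library, and neutrophil-like cells 41.4 CPM (35.3 to 48.3) and 85.0 CPM (64.5 to 110) in the HIR and sham libraries. The HIR values of both lay near the B cell-like level. Of the monocyte-like cells, 325 of 326 HIR cells and all 111 sham cells had exactly the 3 markers that the gate requires, so that class rests on its threshold.

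**Figure D2:**
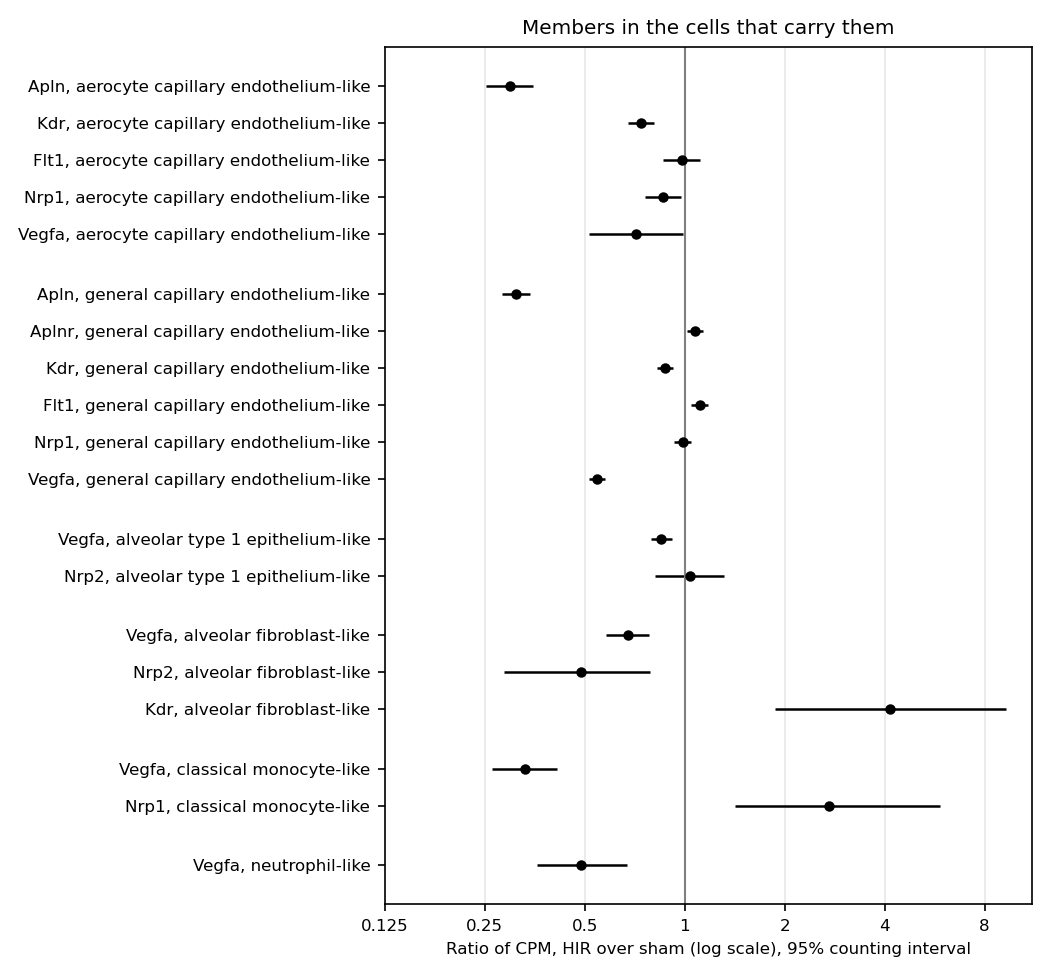
Ratio of CPM, HIR over sham, on a log scale with its 95% counting interval, for the members in the classes that carry them; 1 means equal levels. Apln is at 0.297 and 0.311 in the capillary classes and Vegfa at 0.545 in general capillary-like cells, while Flt1, Nrp1 and Aplnr there lie between 0.985 and 1.11.

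The gaps in the VEGF receptors were small, and those of Kdr and Nrp1 depended on how the cells were chosen. Kdr in aerocyte-like cells was at 1128 CPM (1054 to 1205) in the HIR library and 1527 CPM (1435 to 1623) in the sham library, a ratio of 0.739 (0.674 to 0.809). The share of Kdr-positive aerocyte-like cells at 1000 UMIs, averaged over all draws, was 70.8% in HIR and 76.0% in sham. In the 1 draw made it was 73.6% (67.5 to 79.1) in HIR and 71.3% (65.0 to 77.1) in sham. Markers of mesenchyme moved in the direction opposite to Kdr. Their summed level (7 markers) was 2674 CPM in HIR aerocyte-like cells, with none at 0, and 166 CPM in sham ones, with 3 at 0. The part of these markers was not tested directly. Without cells that showed markers of a second lineage, Kdr was at 1479 CPM in HIR and 1569 CPM in sham, a ratio of 0.943, and Apln still had a ratio of 0.368. In general capillary-like cells Kdr was at 414 CPM (396 to 432) in HIR and 475 CPM (458 to 492) in sham, a ratio of 0.871 (0.823 to 0.922). That ratio was 1.10 in cells with 2000 to 6000 UMIs and 1.11 in cells with no aerocyte marker, so no direction is read from it.

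Flt1 was at 658 CPM (602 to 718) in HIR aerocyte-like cells and 673 CPM (612 to 738) in sham ones. In general capillary-like cells it was at 426 CPM (408 to 445) in HIR and 385 CPM (369 to 400) in sham, a ratio of 1.11 (1.05 to 1.18) that stayed between 1.10 and 1.34 in the 11 alternatives. Venous-like cells held Flt1 at 338 CPM in HIR and 363 CPM in sham, and 6.16-fold (4.30 to 9.16) less Kdr than general capillary-like cells in the HIR library and 7.69-fold (5.20 to 11.9) less in the sham library. Nrp1 was at 640 CPM (585 to 699) and 744 CPM (680 to 812) in HIR and sham aerocyte-like cells and at 435 and 442 CPM in general capillary-like cells. The aerocyte-like Nrp1 ratio of 0.860 (0.758 to 0.976) lay above 1 in 5 of the 11 alternatives.

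Capillary cells did not fall into 2 clean sets, since many showed markers of both types. In general capillary-like cells with no aerocyte marker Apln was at 58.8 CPM in HIR (298 cells) and 144 CPM in sham (238 cells), and in those with at least 2 it was at 136 CPM in HIR (527 cells) and 421 CPM in sham (564 cells). Kdr was likewise higher in cells with more aerocyte markers, Vegfa was lower in them, and Aplnr was high in all 3 bins of general capillary-like cells and low in all 3 bins of aerocyte-like cells. The cells with more markers were also deeper, at a median of 3571 UMIs with at least 2 aerocyte markers and 2300.5 with none in the HIR library, and 4316.5 and 2538.5 in the sham library. Apln and Vegfa were lower in the HIR library in each of these 3 bins of general capillary-like cells.

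**Figure D3:**
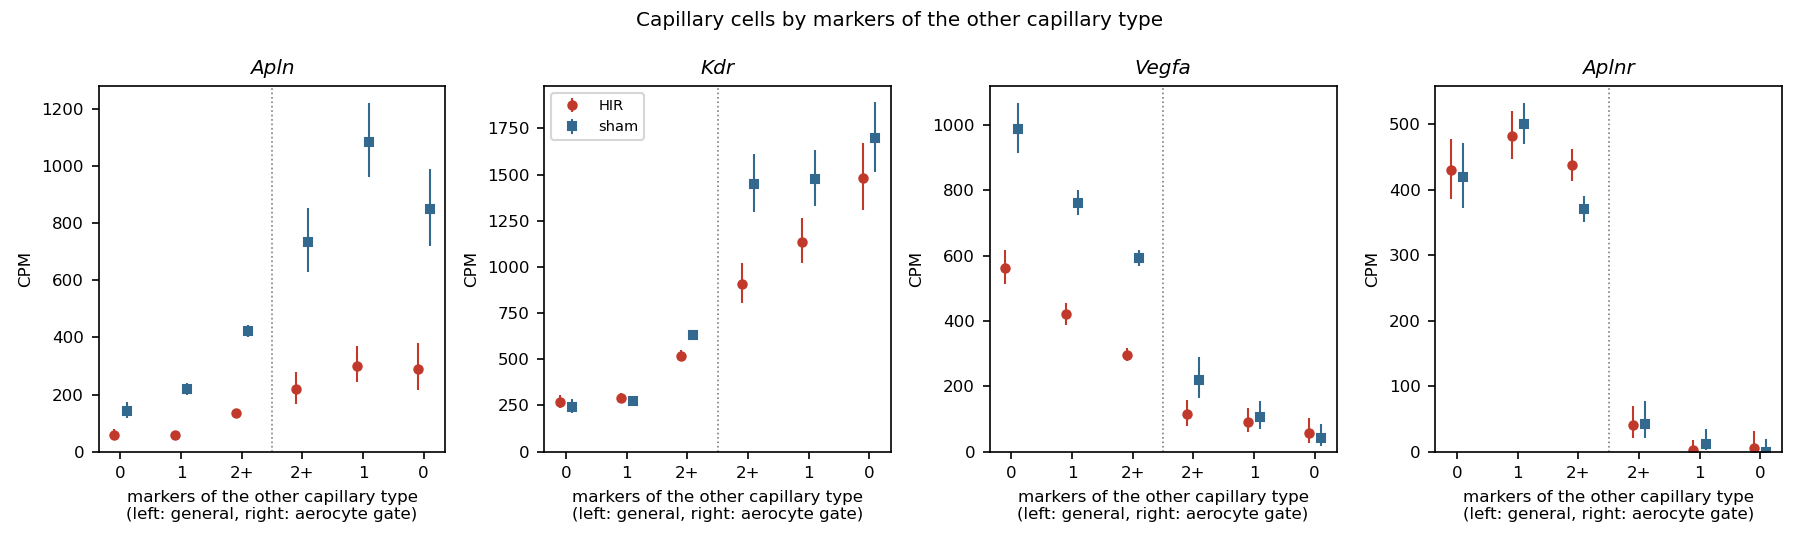
CPM of 4 members with exact Poisson intervals in general capillary-gated cells (left of the dotted line) and aerocyte-gated cells (right), binned by how many markers of the other capillary type they showed, HIR left of sham in each bin. Apln is lower in HIR in all 6 bins and Vegfa in the 3 general capillary bins, while Aplnr is low in both libraries to the right of the line.

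Nrp2 and Flt4 belonged to other cells. Nrp2 was at 188 CPM (155 to 225) in HIR and 181 CPM (156 to 210) in sham alveolar type 1-like cells, and at 57.5 CPM (34.6 to 89.8, 19 UMIs) in HIR and 118 CPM (99.9 to 138, 151 UMIs) in sham alveolar fibroblast-like cells, a ratio of 0.488 (0.286 to 0.788). Flt4 was at most 17.8 CPM in any compared class. The 39 sham lymphatic-like cells held 359 CPM of Flt4 (297 to 430), 959 CPM of Nrp2 (856 to 1071) and 703 CPM of Kdr (615 to 800), and 49.2% of all Flt4 UMIs of the sham library. The HIR library had 5 such cells with 15188 UMIs in all and no Flt4 UMI, too few to compare: a count of 0 allows up to 198 CPM there. The library-wide Flt4 level was 1.87 CPM in HIR and 5.16 CPM in sham; fewer lymphatic-like cells and less Flt4 per cell cannot be told apart there.

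Kdr in alveolar fibroblast-like cells was the 1 member at least 2-fold higher in the HIR library among those measured there, at 45.4 CPM (15 UMIs in 76 cells) in HIR and 10.9 CPM (14 UMIs in 257 cells) in sham, where 5.09% of all genes were higher and 4.1% lower by that much. With so few UMIs the ratio of 4.15 had an interval of 1.87 to 9.29. In the same cells Vegfd and Vegfc, ligands of VEGFR3, were at 200 and 106 CPM in the HIR library and 124 and 67.9 CPM in the sham library.

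Beyond the members, the listed genes that act with or after VEGF had counts in both directions in most lists. In general capillary-like cells, 5 of 12 measured VEGF-induced endothelial genes were higher in HIR and 7 lower, 0 and 1 of them by 2-fold. By that mark 1.15% of all genes there were higher and 0.55% lower. The list had a median log2 ratio of -0.08, beside -0.01 over all genes. Unc5b, a netrin receptor of tip cells, was at 48.6 CPM in HIR and 103 CPM in sham, and Nrarp, a feedback inhibitor of Notch, at 38.3 CPM in HIR and 87.5 CPM in sham. Adamts1, a secreted protease, was at 135 CPM in HIR and 65.3 CPM in sham. Of 18 measured genes of VEGFR2 signal transduction 7 were higher and 11 lower, none by 2-fold, with a median log2 ratio of -0.06; Plcg1, the phospholipase that binds the activated receptor, was at 98.6 CPM in HIR and 73.2 CPM in sham. The angiopoietin receptor Tek was at 559 CPM in HIR and 416 CPM in sham, a ratio of 1.35 (1.27 to 1.42), and Ptprb, a phosphatase that restrains Tek and VEGFR2, at 353 CPM in HIR and 265 CPM in sham.

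In aerocyte-like cells 4 of 16 measured genes of VEGFR2 signal transduction were higher in HIR and 12 lower, none by 2-fold (median log2 ratio -0.14, all genes -0.02). All 5 measured semaphorins and plexins were lower there, none by 2-fold, where 51.7% of all genes were lower. Their median was -0.32 and came to -0.036 over all 12 listed. The ratio intervals of Sema3c (0.755 to 1.15), Plxna1 (0.495 to 1.84) and Plxna2 (0.545 to 1.05) included 1. Plxnd1, the receptor of Sema3e, was at 83.4 CPM in HIR and 144 CPM in sham. The VEGF-induced genes were 4 higher and 6 lower of 10, with 1 in each direction by 2-fold and a median of -0.11. By the 2-fold mark 5.06% of all genes in this class were higher and 1.2% lower. Unc5b was again lower (24.4 CPM in HIR, 57.9 CPM in sham). The 2 past the mark were Adamts1 and Spry4. Adamts1 was higher (59.0 CPM in HIR, 19.3 CPM in sham). Spry4, a feedback inhibitor of receptor signalling, was lower (7.70 CPM on 6 UMIs in HIR, 32.7 CPM on 22 UMIs in sham). Of 8 measured genes that restrain VEGFR2, 5 were higher and 3 lower, 1 of them higher by 2-fold, with a median of 0.27. Dab2, an endocytic adaptor, was at 32.1 CPM (25 UMIs) in HIR and 4.46 CPM (3 UMIs) in sham. In general capillary-like cells 3 of 6 were higher and 3 lower, none by 2-fold, with a median of -0.02. Spry4 and Dab2 lie under the level set for naming genes and were picked after their values were seen.

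Vegfa is itself a target of the hypoxia response, and the other listed hypoxia-induced genes are set beside it here. Of 10 measured in general capillary-like cells 8 were higher in HIR and 2 lower, 2 and 0 of them by 2-fold. By that mark 1.15% of all genes there were higher and 0.55% lower. The list had a median log2 ratio of 0.12, beside -0.01 over all genes, of which 51.4% were lower. In alveolar type 1-like cells 7 of 9 were higher and 2 lower, none by 2-fold, with a median of 0.26 beside 0.21 over all genes, of which 30.5% were lower. The list thus lay near the level of all genes. Bnip3, a mitophagy receptor, was at 235 CPM in HIR and 116 CPM in sham. In alveolar fibroblast-like cells 8 of 10 were higher, 4 of them by 2-fold, where 5.09% of all genes were higher and 4.1% lower by that much. The list median was 0.08 beside 0.07 over all genes, of which 44.9% were lower. Pfkfb3, which drives glycolysis, was at 406 CPM in HIR and 108 CPM in sham, and Bnip3 at 611 CPM in HIR and 191 CPM in sham, while P4ha1 was at 81.7 CPM in HIR and 149 CPM in sham. In aerocyte-like cells, which hold little Vegfa, 3 of 9 were higher and 6 lower, none by 2-fold, with a median of -0.06.

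Some genes outside the list had a pattern over the 19 classes and 2 libraries like that of a member. By Pearson correlation of log2(CPM + 10) over these 38 points, which share libraries and depth, among 3887 genes with at least 100 CPM in a class, Apln was nearest to Tdrp (r = 0.977), Tmem100 (0.965) and Scarf1 (0.963). Aplnr was nearest to Gpr182 (0.982), Tek (0.974) and Ptprb (0.960), Kdr to Pdia5 (0.946), and Flt1 to Ica1 (0.991). Vegfa, spread over epithelium, fibroblasts and endothelium, had no neighbour above that of Nckap5 (0.818), and Nrp2 none above Matn4 (0.776).

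**Figure D4:**
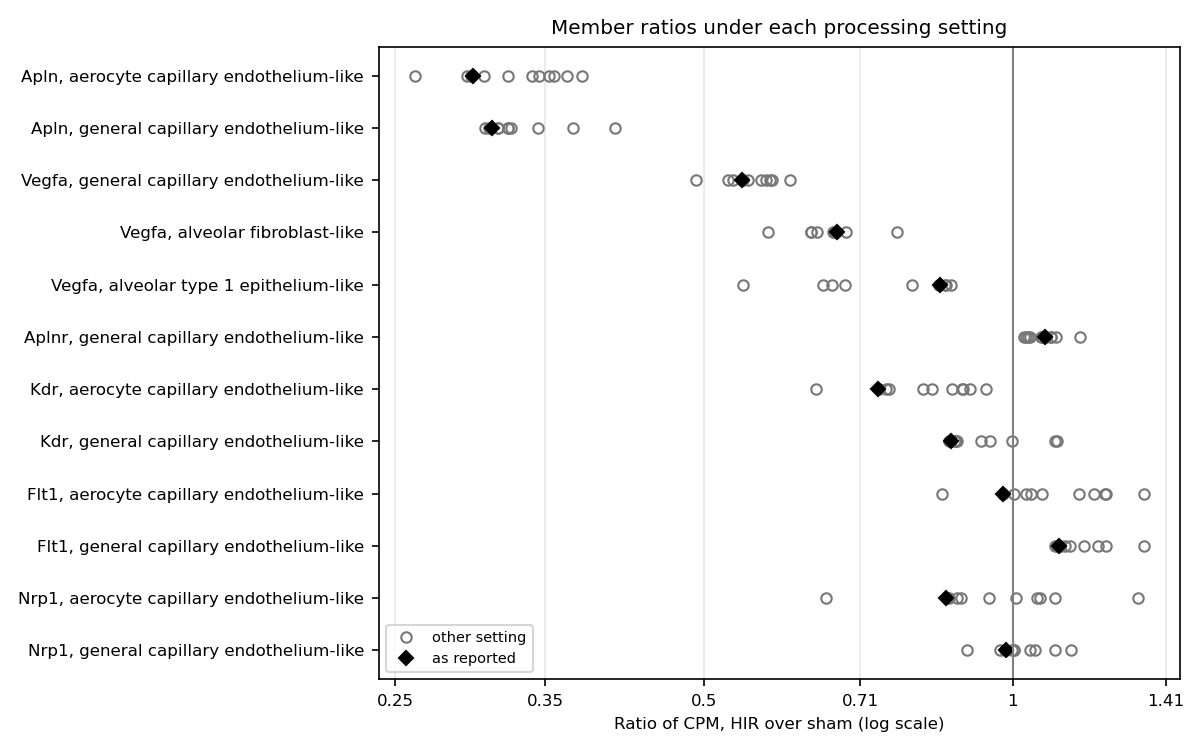
Ratio of CPM, HIR over sham (log scale), for 12 pairs of member and class, as reported (diamonds) and under each of the 10 or 11 other processing settings (open circles). The Apln and Vegfa rows stay left of 1 throughout, while the Kdr row of general capillary-like cells, the Flt1 row of aerocyte-like cells and both Nrp1 rows have points on each side of 1.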

How the data were processed

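The deposited matrices hold a raw UMI count per gene and barcode, as whole numbers with no normalization. Per the submitters' processing notes, Cell Ranger 6.0, STAR and Seurat 4.0 were used with mm10; cellranger 5.0.0 is named per the file headers, and the features carry rat identifiers. The reference tables at hand are for mouse, so no sequence was used. No barcode had fewer than 500 UMIs.

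A barcode was kept if it had 200 genes or more and its mitochondrial share did not exceed 20%. Scrublet (scanpy 1.11.5) scored doublets, and the highest scores were left out at 0.8% per 1000 barcodes. A cell was assigned to the lineage, then the subtype, with the largest share of its listed markers detected, at least 3 being required; cells with a tie or none stayed unassigned, or kept only their lineage where this befell the subtype. Of 183 listed markers in 28 lists, 174 were matched to a feature, 3 of them by a rat symbol. UMIs were summed per class and library and divided by the class total, with exact Poisson intervals for levels, exact conditional binomial intervals for ratios and exact Clopper-Pearson intervals for shares (scipy 1.17.1). Thinned shares are from 1 random draw per cell, a separate one for pairs of genes, and are given also as the hypergeometric expectation over all draws. The floor for a count of 0 was 3 counts. Ratios of ratios have log-normal intervals from the 4 counts. Intervals and floors cover counting error only. Log2 ratios had 10 CPM added to both values, for genes with at least 20 CPM in either library without mitochondrial, ribosomal and hemoglobin genes. Only the ratio intervals were tested on simulated data, as Poisson counts with known fold changes for both capillary classes. Such counts hold counting error alone, so the outcome says nothing on variation between libraries. Cell filtering, doublet scoring, gating and thinning were not simulated. With 1 library per group no test was made.

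All 8 members are named. In the pathway lists, up to 3 genes in each direction with at least 50 CPM were eligible to be named. The members and lists were chosen with earlier results of these data known. The scoring rule of the gate was written after the detection of the markers had been seen, and the 8 ratios treated as leading ones were picked after the levels had been seen. The alternatives tried were other cell filters, doublets kept, other gates, Leiden clusters (30 principal components, 15 neighbours, resolution 1.0, 2000 variable genes without the members), other scalings, other thinning depths and other list settings, and 3 added after seeing the data.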

Additional observations from a re-analysis of the deposited data

Results flagged for a closer look

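Nrp1 differed in opposite directions between immune classes. It was higher in HIR classical monocyte-like cells (29.4 CPM, 97 UMIs) than in sham ones (10.8 CPM, 10 UMIs), a ratio of 2.73 (1.42 to 5.87), and in immune cells without a subtype, at 75.2 CPM in HIR and 47.5 CPM in sham, a ratio of 1.58 (1.30 to 1.92). It was lower in HIR interstitial macrophage-like cells, at 11.2 CPM (11 UMIs) in HIR and 24.7 CPM (31 UMIs) in sham, a ratio of 0.453 (0.205 to 0.926). The immune cells without a subtype were led by Siglech and Irf8, with 496 HIR and 912 sham cells. Neither their make-up in each library nor the difference between these classes was tested. The monocyte-like class rests on its gate threshold, as given above.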

How the results depend on the processing

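No paired analysis was possible because each group has 1 library. Each of 24 CPM ratios was recomputed under up to 11 alternatives, 3 of them chosen after seeing the data, as were the shares averaged over all draws (cells with markers of a second lineage left out, no marker of the other capillary type, cells with 2000 to 6000 UMIs). Of 248 values, 186 lay within the counting interval of the reported ratio, 53 lay outside it, and 9 turned round a ratio whose interval excluded 1; 36 in all were on the other side of 1. The Apln ratio was 0.261 to 0.380 in aerocyte-like cells and 0.306 to 0.409 in general capillary-like cells, and the Vegfa ratio of general capillary-like cells 0.491 to 0.607.

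With Leiden clusters, the ratios were 0.353 for Apln in aerocyte-like cells, 1.16 for Aplnr, 0.910 and 0.930 for Kdr in aerocyte-like and general capillary-like cells, 0.546 for Vegfa in alveolar type 1-like and 0.607 in general capillary-like cells, and 1.01 for Nrp1 in aerocyte-like cells. As the mean of each cell's CPM they were 0.357 for Apln in aerocyte-like cells, 0.894 and 0.998 for Kdr, 0.666 and 0.580 for Vegfa, and 1.06 for Nrp1, in the same order of classes. Without cells of a second lineage they were 0.368 and 0.344 for Apln, 0.943 and 0.9501 for Kdr, 0.653 for Vegfa in alveolar type 1-like cells and 1.10 for Nrp1 in aerocyte-like cells. In cells with 2000 to 6000 UMIs they were 0.380 and 0.373 for Apln, 0.892 and 1.10 for Kdr, 0.687, 0.583 and 0.577 for Vegfa in alveolar type 1-like, general capillary-like and alveolar fibroblast-like cells, and 1.06 and 1.09 for Nrp1 and Vegfa in aerocyte-like cells. Without markers of the other capillary type they were 0.409 for Apln and 1.11 for Kdr in general capillary-like cells, and 0.874, 1.33 and 1.31 for Kdr, Nrp1 and Vegfa in aerocyte-like cells. The stricter filter gave 0.835 for Kdr in aerocyte-like and 0.491 for Vegfa in general capillary-like cells, doublets kept 0.817 and a gate of 4 markers 0.643 for Kdr in aerocyte-like cells. The cause of these shifts was not tested.

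The ratio of the share of Apln-positive general capillary-like cells was 0.317 in the draw of 1000 UMIs, 0.482 in 1 of 2000 UMIs and 0.540 without thinning, and 0.395 and 0.471 averaged over all draws of 1000 and 2000 UMIs. That of Aplnr was 0.905 and 1.0025 in the draws and 1.02 and 0.998 averaged over all of them. With no filter on low members the semaphorin and plexin median in aerocyte-like cells was -0.036 in place of -0.32. Depth limits the members under about 50 UMIs per class, such as Flt4 and Kdr in fibroblasts.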
